A study of Mus musculus with 45 samples.

Results

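The genes described are 10 mouse genes of the ephrin, semaphorin and plexin families, taken by symbol from a table of 55450 gene rows: the ephrin ligand gene Efnb1, the Eph receptor genes Ephb4 and Ephb6, the plexin receptor genes Plxnb2 and Plxnd1, and the semaphorin genes Sema4a, Sema4b, Sema4c, Sema4d and Sema7a. All 10 symbols were found, each in 1 row. RNA-seq was run on 45 libraries from 4 lymphocyte populations sorted out of draining popliteal lymph nodes (dLN) of wild-type (WT) mice and of mice lacking S1PR4, a receptor for sphingosine 1-phosphate, from all cells (S1PR4-/-, strain B6.129P2-S1pr4tm1Dgen/J backcrossed to C57/BL6 for at least 10 generations, with WT littermates as controls). All mice, 8 to 12 weeks old and of both sexes, had received 20 µL of incomplete Freund's adjuvant with 50 µg OVA and 5 µg LPS in the hind footpads. Germinal center (GC) B cells (B220+GL7+Fas+) and non-GC B cells (GL7-Fas-) were sorted on day 9, and follicular helper T (TFH) cells (TCRβ+CD4+PD1+CXCR5+) and non-TFH CD4+ T cells (PD1-CXCR5-) on day 6. There were 6 libraries in each of the 8 groups except WT non-GC B cells, with 5, and S1PR4-/- non-GC B cells, with 4. No naive animals were compared here, lineage and day of sort cannot be told apart, and the labels do not tie a library to a mouse. The methods give 6 mice of each genotype. Nodes were collected after euthanasia, so T cells of day 6 and B cells of day 9 came from different mice. The p-values thus measure the spread between these samples.

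Ephrins and Eph receptors are membrane proteins on neighbouring cells that signal in both directions on contact. Semaphorins are secreted or membrane-bound ligands whose main receptors are the plexins, which act on small GTPases, integrins and the actin cytoskeleton. Both families are best known from axon guidance and vessel patterning. In lymph nodes several of them take part in contacts between B cells, T cells and dendritic cells: Efnb1 and class 4 semaphorins lie on lymphocytes, and B-type plexins are receptors for class 4 semaphorins.

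Promoters are shown for Efnb1, Plxnb2 and Sema7a because these genes were called higher in GC B cells than in non-GC B cells in both genotypes. Each run is the 250 bases upstream of a RefSeq transcription start on GRCm38.p6, 5′ to 3′ on the gene's strand. Capitals mark the motifs CACCC (the core letters of Krüppel-like factor sites) and CAGCTG or CACCTG (E-box letters bound by E proteins), each searched on both strands, so GGGTG and CAGGTG are also in capitals. No capitalised motifs overlapped in these runs.
Efnb1, chrX:99135811-99136060, plus strand: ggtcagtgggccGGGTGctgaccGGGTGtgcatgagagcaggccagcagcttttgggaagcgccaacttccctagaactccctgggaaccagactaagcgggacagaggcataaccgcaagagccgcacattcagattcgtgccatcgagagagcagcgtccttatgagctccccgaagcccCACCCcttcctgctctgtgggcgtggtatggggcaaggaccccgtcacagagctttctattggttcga
Plxnb2, chr15:89180789-89181038, minus strand: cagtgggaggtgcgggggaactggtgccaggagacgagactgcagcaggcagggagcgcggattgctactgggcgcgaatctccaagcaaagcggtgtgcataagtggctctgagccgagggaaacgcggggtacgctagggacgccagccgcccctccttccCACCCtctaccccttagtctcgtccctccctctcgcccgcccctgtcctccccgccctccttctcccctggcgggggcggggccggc
Sema7a, chr9:57939862-57940111, plus strand: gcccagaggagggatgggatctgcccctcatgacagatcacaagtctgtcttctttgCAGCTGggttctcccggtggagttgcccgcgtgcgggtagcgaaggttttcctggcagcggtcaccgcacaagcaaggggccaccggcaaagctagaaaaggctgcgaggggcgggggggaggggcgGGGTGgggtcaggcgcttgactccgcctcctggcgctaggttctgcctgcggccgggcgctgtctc
The Efnb1 run held 3 CACCC matches, no E-box match and 13 CpG dinucleotides, with 60.0% G or C. In Plxnb2 there were 1 CACCC match and 20 CpG (69.2% G or C), and in Sema7a 1 CACCC match, 1 CAGCTG match and 17 CpG (66.4% G or C). Plxnb2 has a further RefSeq start, whose window at chr15:89173952-89174201 is not shown. That window held 1 CACCC match, 1 CACCTG match and 13 CpG (63.6% G or C). Over 32851 RefSeq promoter windows of this length, 52.0% held CACCC, 17.2% CACCTG and 4271 windows CAGCTG, and the median number of CpG was 6. The letters are a description of these windows, and none of them was tested against expression.

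Library totals ran from 26299429 to 45548215 expected counts, with a median of 34188292. Levels are given as CPM, expected counts scaled to a common library size with TMM factors, and comparisons as log2 fold changes ± SE from edgeR's quasi-likelihood test with Benjamini-Hochberg adjustment over all genes tested (FDR). A gene was called at an FDR under 0.05 with a fold over 1.5. S1pr4 itself was between 17.1 and 164 CPM in the WT libraries and at most 1.02 CPM in every S1PR4-/- library, which matched the genotype labels. Summed over 8 B-cell markers, the B-cell libraries held 7048 to 13789 CPM, WT TFH libraries 161 to 425 CPM, S1PR4-/- TFH libraries 149 to 269 CPM and non-TFH libraries 8.72 to 45.5 CPM. Summed over 8 T-cell markers, the T-cell libraries held 3856 to 5354 CPM and the B-cell libraries 2.81 to 100.7 CPM. Summed over 7 GC B markers, GC B libraries held 1243 to 2176 CPM and non-GC B libraries 125 to 183 CPM, and over 7 TFH markers, TFH libraries held 2568 to 3905 CPM and non-TFH libraries 174 to 442 CPM. Plasma-cell markers moved with the GC B gate, at 1603 to 15696 CPM in GC B and 347 to 691 CPM in non-GC B libraries, and their part in the GC B values was not tested. In these bulk libraries a lower level from fewer expressing cells cannot be told apart from less RNA per cell.

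**Figure D1:**
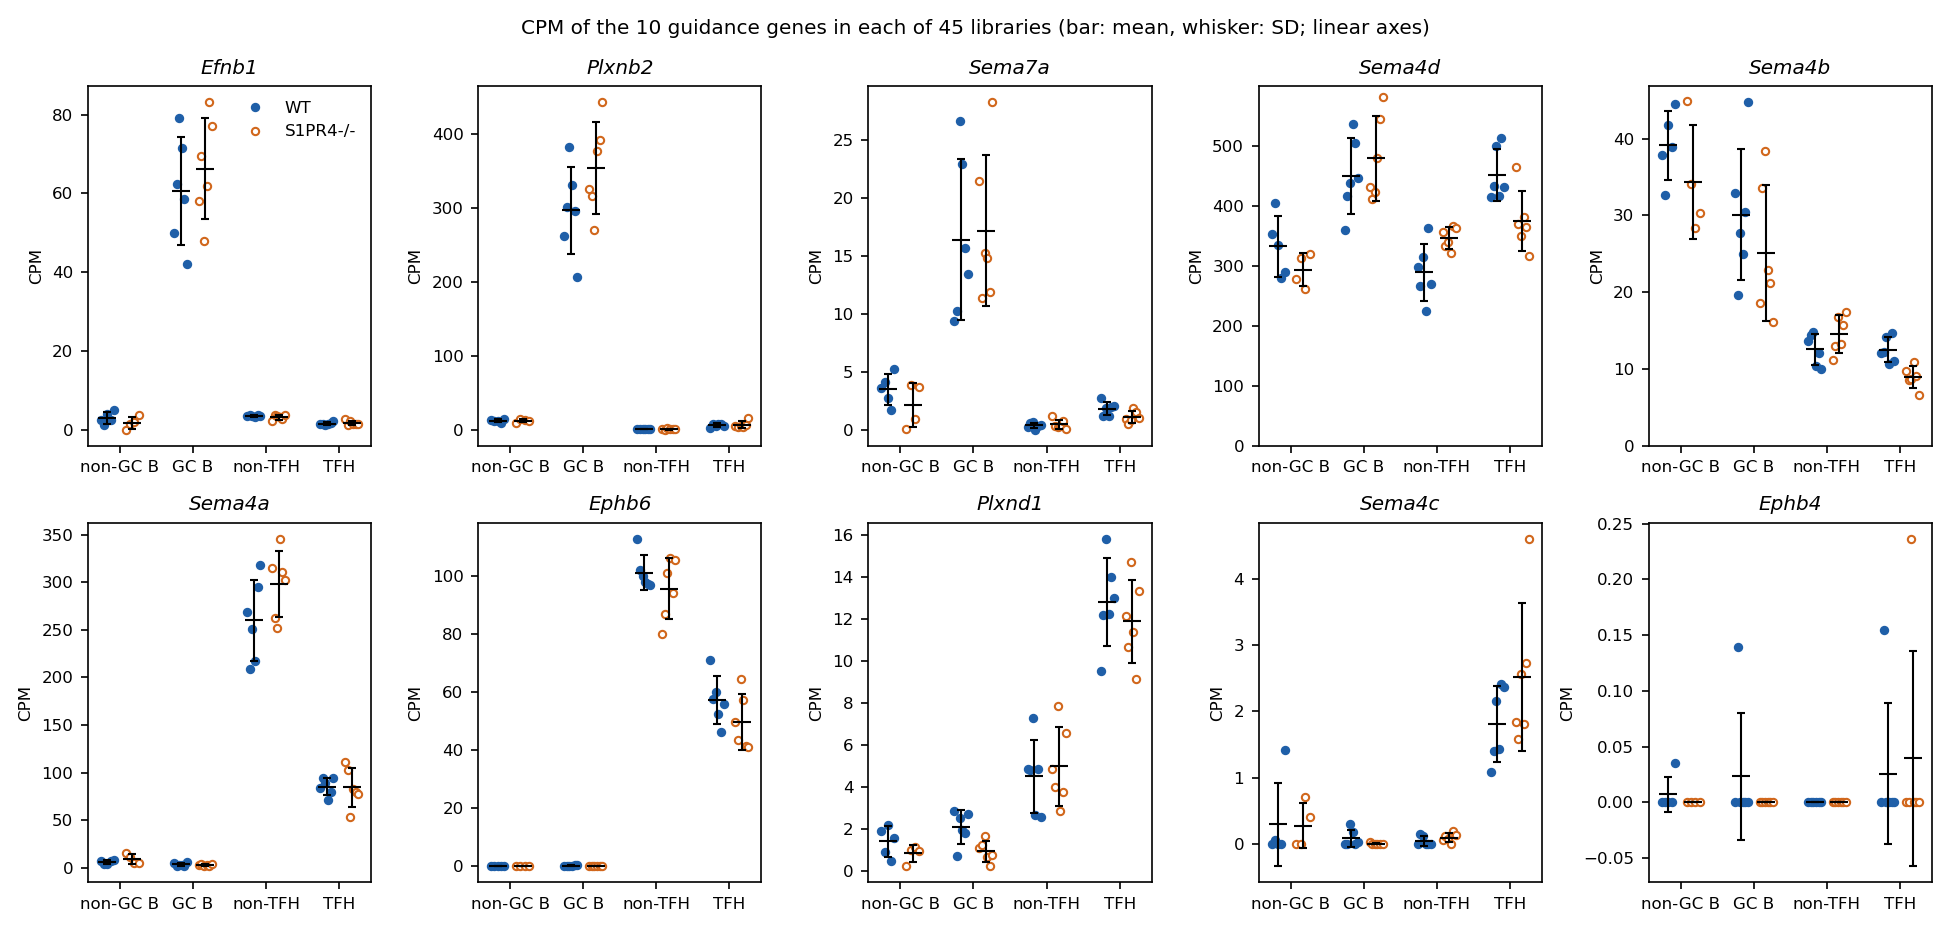
CPM on linear axes for the 10 genes in every library, by population, with filled points for WT, open points for S1PR4-/-, a bar at the mean and whiskers of 1 SD. Efnb1 and Plxnb2 stand high in GC B cells of both genotypes, Ephb6 and Sema4a in T cells, and Sema4d is at 224 CPM or more in every library.

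The question put to these genes was how they differ between the activated and the non-activated population of each lineage, and whether the loss of S1PR4 altered them. Of the 10 genes, 7 passed the filter on low counts in the comparison of GC B with non-GC B cells of WT mice, where 3 were called higher and 0 lower, while 47.8% of all 13324 genes tested were called (24.8% higher, 23.1% lower). For TFH against non-TFH cells of WT mice 9 passed, 5 were called higher and 3 lower, beside 43.2% of 13481 genes (22.8% higher, 20.4% lower). Among S1PR4-/- libraries 4 were called higher and 1 lower of 7 tested in B cells, beside 48.2% of all genes (25.3% higher, 22.9% lower), and 4 higher and 4 lower of 9 tested in T cells, beside 43.4% (22.3% higher, 21.1% lower). The share called was thus near that of all genes in WT B cells and above it elsewhere. These counts include members that passed the filter only through the libraries where they are high. In T cells these were Sema4c and Sema7a in both genotypes and Plxnb2 in S1PR4-/- mice. In S1PR4-/- B cells they were Efnb1 and Sema7a. Their calls there are a description and not a test. The libraries of the compared populations did not overlap in CPM for 3 of the 10 genes in WT and 5 in S1PR4-/- B cells, and for 8 in WT and 6 in S1PR4-/- T cells, beside 43.1%, 45.5%, 42.0% and 41.7% of 16200 genes. The median log2 difference of the tested members was 0.63 in WT B cells and 0.64 in WT T cells, beside 0.0021 and 0.00025 over all genes tested. Of the members tested, 5 of 7 in B cells and 5 of 9 in T cells had a positive difference. These signed medians rest on few genes of mixed sign and are not a test of a shared direction. Without the sign, the median was 0.631 in WT B cells, beside 0.646 over all genes tested. In WT T cells it was 1.503, beside 0.527. The gene-by-gene values follow, ligand and receptors of the ephrin family first, then plexins and semaphorins.

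**Figure D2:**
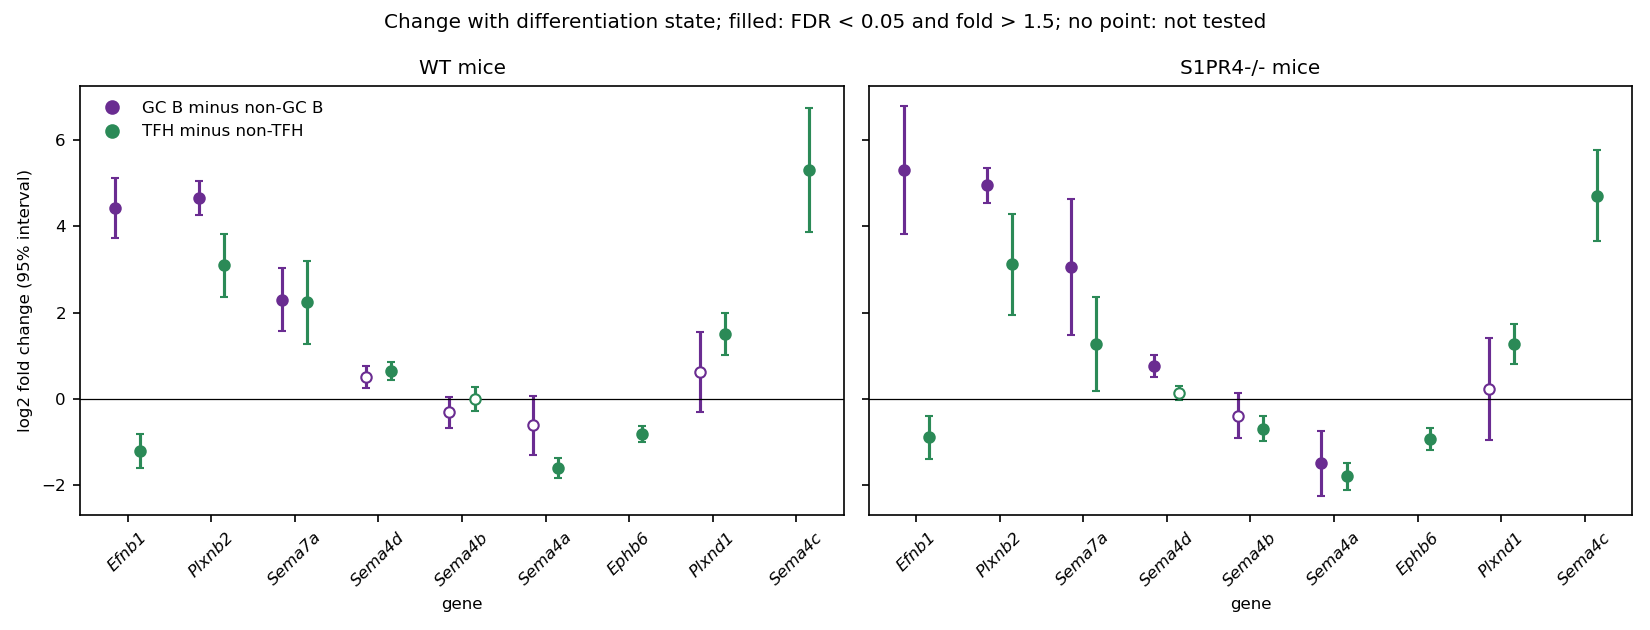
Log2 fold changes with 95% intervals for GC B minus non-GC B cells and for TFH minus non-TFH cells in WT (left) and S1PR4-/- mice (right), by gene, with filled points for calls at an FDR under 0.05 and a fold over 1.5 and no point where a gene was not tested. Efnb1 lies at 4.43 in WT B cells and at -1.21 in WT T cells, while Plxnb2 and Sema7a lie above 0 in both lineages.

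Efnb1 encodes ephrin-B1, a transmembrane ligand that can also signal into the cell that carries it. The gene lies on GRCm38 chromosome X at 99136130 to 99148991, plus strand. In WT GC B cells its level ran from 42.1 to 79.0 CPM with a median of 60.5, and in S1PR4-/- GC B cells from 48.0 to 83.1 with a median of 65.7. The 5 WT non-GC B libraries held 2.31, 1.25, 3.86, 2.43 and 4.87 CPM, and the 4 S1PR4-/- libraries 0, 1.32, 1.83 and 3.70 CPM. Every GC B library was thus above every other library of the series. The rise from non-GC B to GC B was 4.43 ± 0.32 on the log2 scale in WT (21.5-fold, FDR = 1.34e-07) and 5.32 ± 0.68 in S1PR4-/- mice (FDR = 3.64e-05). In S1PR4-/- B cells Efnb1 passed the filter through the GC B libraries, so that call is a description and not a test. In CD4+ T cells the order was the opposite and the levels were low: WT non-TFH cells held 3.23 to 3.69 CPM (median 3.44) and WT TFH cells 1.05 to 2.103 CPM (median 1.41), without overlap. Efnb1 fell by 1.21 ± 0.18 on the log2 scale from non-TFH to TFH in WT (FDR = 3.36e-05) and changed by -0.90 ± 0.24 in S1PR4-/- mice (FDR = 0.00364), where the libraries overlapped. Non-GC B and non-TFH cells, the neighbours in the order of levels, did not differ beyond their spread (-0.17, 95% interval -0.81 to 0.47, FDR = 0.651).

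Ephb6 encodes an Eph receptor whose kinase domain is inactive and which is known in T cells. It lies on chromosome 6 at 41605482 to 41620509, plus strand. WT non-TFH cells held 96.8 to 113 CPM with a median of 98.9, and WT TFH cells 46.3 to 71.0 CPM with a median of 56.8. For S1PR4-/- mice the non-TFH libraries ran from 80.0 to 106 CPM and the TFH libraries from 40.9 to 64.4 CPM. TFH libraries were below all non-TFH libraries in both genotypes, with a log2 difference of -0.82 ± 0.09 in WT (FDR = 9.01e-07) and -0.94 ± 0.12 in S1PR4-/- (FDR = 7.13e-06). The B-cell libraries were close to empty: 16 of the 21 held no Ephb6 count, the summed counts were 2 in WT non-GC B cells, 2 in S1PR4-/- non-GC B cells, 16 in WT GC B cells and 0 in S1PR4-/- GC B cells. The CPM of the summed counts was 8119 times higher in WT non-TFH than in WT non-GC B cells (95% counting interval 2247 to 67049) and 690 times higher in WT TFH than in WT GC B cells (425 to 1207). Without S1PR4, TFH cells were at least 3180-fold higher than GC B cells, taking 3 counts over the group for 0. These intervals and bounds cover counting error only. Ephb4, the receptor for ephrin-B2 best known from veins (chromosome 5, 137350109 to 137378669, plus strand), had counts in 4 libraries, 1 each of WT non-GC B, WT GC B, WT TFH and S1PR4-/- TFH cells, with 1, 4, 6 and 7 counts. It was at 0 in all other libraries, and no comparison of it could be made at this depth.

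Plxnb2 encodes plexin-B2, a receptor for the class 4 semaphorins Sema4c and Sema4d, on chromosome 15 at 89155549 to 89180788, minus strand. WT GC B cells held 207 to 382 CPM (median 299) and S1PR4-/- GC B cells 271 to 443 CPM (median 352). The WT non-GC B libraries held 13.4, 11.4, 12.2, 9.39 and 15.03 CPM, and the S1PR4-/- libraries 9.51, 14.2, 12.8 and 11.3 CPM. No GC B library overlapped a non-GC B library, and the log2 rise was 4.66 ± 0.18 in WT (25.3-fold, FDR = 1.57e-09) and 4.95 ± 0.18 in S1PR4-/- mice (FDR = 6.15e-09). T cells held far less. WT TFH cells ran from 2.25 to 8.28 CPM (median 6.48) and WT non-TFH cells from 0.397 to 1.10 CPM (median 0.619), a log2 difference of 3.09 ± 0.34 (FDR = 1.27e-06) with no overlap. The S1PR4-/- TFH libraries held 3.31 to 16.3 CPM (median 5.31) and the S1PR4-/- non-TFH libraries 0.181 to 1.64 CPM, a difference of 3.12 ± 0.54 (FDR = 1.42e-04). The highest S1PR4-/- TFH library, replicate 6, also had the highest sum of myeloid markers among TFH libraries, 421.9 CPM. Without it the difference was 2.65 (FDR = 2.41e-04). In S1PR4-/- T cells Plxnb2 passed the filter through the TFH libraries, so neither FDR is read as a test of this difference.

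TFH libraries also carried B-cell transcripts, and Plxnb2 and Sema7a are higher in B cells than in T cells, so both levels were set beside the B-cell markers. The median of the 8 markers was 0.193 to 2.30% of its non-GC B level in WT TFH libraries and 0.0411 to 0.883% in S1PR4-/- TFH libraries. At these percentages of the non-GC B level Plxnb2 would be at most 0.282 CPM in WT and 0.105 CPM in S1PR4-/- TFH libraries, below the 2.25 and 3.31 CPM of the lowest libraries. Sema7a would be at most 0.0800 and 0.0189 CPM, below the lowest measured 1.19 and 0.518 CPM. Against GC B cells, whose Plxnb2 is far higher, the markers stood at 0.376 to 3.98% in WT and 0.0621 to 1.58% in S1PR4-/- TFH libraries. At those percentages of the GC B level Plxnb2 would be 1.12 to 11.8 CPM in WT and 0.220 to 5.60 CPM in S1PR4-/- libraries. Taking these from the measured values left a median of 0.833 CPM in WT (lowest -5.85, highest 5.69) and 4.29 CPM in S1PR4-/- TFH libraries (lowest -0.604, highest 15.5). For Sema7a the same percentages of the GC B level gave 0.0617 to 0.652 CPM in WT and 0.0107 to 0.271 CPM in S1PR4-/- libraries. That left a median of 1.60 CPM in WT (lowest 0.536) and 0.967 CPM in S1PR4-/- TFH libraries (lowest 0.507). Rgs13, a regulator of G protein signalling used as a GC B marker, was at 0 in all S1PR4-/- TFH libraries and at most 0.307% of its GC B level in WT. Gcsam, another GC B marker, was at most 0.377% of its GC B level in WT and 0.151% in S1PR4-/- TFH libraries. The part of B-cell RNA in the TFH levels of Plxnb2 and Sema7a was not tested further.

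**Figure D3:**
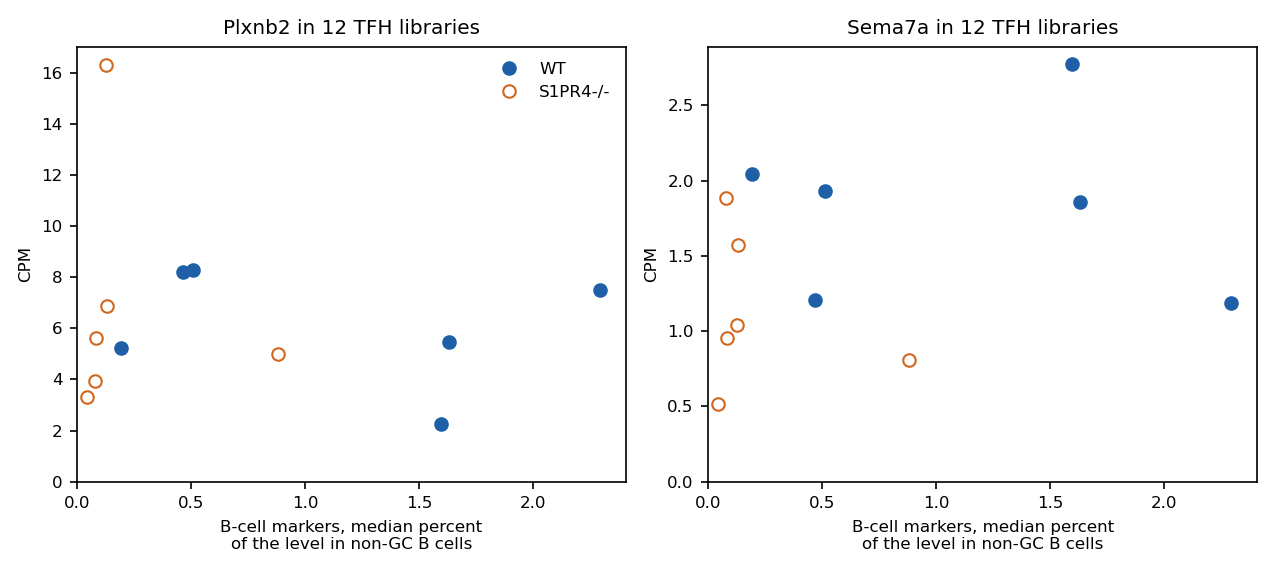
Plxnb2 (left) and Sema7a (right) in CPM against the median percent of the non-GC B level reached by 8 B-cell markers, for 6 WT (filled) and 6 S1PR4-/- (open) TFH libraries, on linear axes from 0. Both genes are above 0 in libraries with the lowest marker percentages, and the highest Plxnb2 value, 16.3 CPM, is an S1PR4-/- library.

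Plxnd1 encodes plexin-D1, the receptor for the secreted semaphorin Sema3e, on chromosome 6 at 115954811 to 115995005, minus strand. It was highest in TFH cells, with 9.53 to 15.8 CPM in WT (median 12.6) and 9.13 to 14.7 CPM in S1PR4-/- mice (median 11.75). Non-TFH cells held 2.59 to 7.28 CPM in WT and 2.88 to 7.84 CPM in S1PR4-/- mice, so the TFH libraries were above all of them in each genotype. The log2 rise was 1.503 ± 0.23 in WT (2.83-fold, FDR = 3.34e-05) and 1.26 ± 0.22 in S1PR4-/- mice (FDR = 1.30e-04). B cells were near 1 to 2 CPM. WT GC B cells held 0.699 to 2.87 CPM and WT non-GC B cells 0.460 to 2.21 CPM, and these overlapped (0.63, 95% interval -0.30 to 1.56, FDR = 0.207).

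Sema7a is a semaphorin anchored to the membrane by a lipid, whose receptors include plexin-C1 and β1 integrin. It lies on chromosome 9 at 57940112 to 57962865, plus strand. GC B cells held 9.42 to 26.6 CPM in WT (median 14.6) and 11.3 to 28.2 CPM in S1PR4-/- mice (median 15.05). WT non-GC B libraries held 3.60, 4.10, 2.78, 1.67 and 5.26 CPM, and S1PR4-/- non-GC B libraries 0.0677, 3.87, 0.956 and 3.67 CPM. No non-GC B library reached the lowest GC B library. The log2 rise was 2.30 ± 0.34 in WT (4.93-fold, FDR = 6.23e-05) and 3.06 ± 0.72 in S1PR4-/- mice (FDR = 0.00296). In T cells Sema7a was low but moved the same way: 1.19 to 2.78 CPM in WT TFH cells against 0.0265 to 0.699 CPM in WT non-TFH cells, a log2 difference of 2.24 ± 0.45 (FDR = 4.65e-04) with no overlap. In S1PR4-/- mice the libraries overlapped, at 0.518 to 1.89 CPM against 0.106 to 1.20 CPM. The difference there was 1.27 ± 0.51 (FDR = 0.0368), and it lost its call when any of 7 libraries was left out, with FDR up to 0.0970. Those were replicates 1, 4 and 5 of S1PR4-/- TFH cells and 2, 3, 4 and 6 of S1PR4-/- non-TFH cells. Sema7a passed the filter in T cells of both genotypes through the TFH libraries. In S1PR4-/- B cells it passed through the GC B libraries. Its calls in these comparisons are a description and not a test.

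Sema4d, or CD100, is the lymphocyte semaphorin that binds the B-type plexins and, on B cells, Cd72. It lies on chromosome 13 at 51685529 to 51793747, minus strand. It was abundant in every group, from 224 to 582 CPM over the 45 libraries. Per kilobase of exon, WT levels were 43.3 CPM per kb in non-GC B, 58.6 in GC B, 37.6 in non-TFH and 58.8 in TFH cells, the highest of the 10 genes in each group but non-TFH cells, where Sema4a stood higher. WT GC B cells held 359 to 537 CPM and WT non-GC B cells 280 to 404 CPM. The log2 difference was 0.50 ± 0.12 (FDR = 0.00183), short of the fold of 1.5. In S1PR4-/- mice it was 0.77 ± 0.12 (FDR = 1.35e-04) and passed, with 412 to 582 CPM against 278, 314, 262 and 320 CPM. WT TFH cells held 414 to 513 CPM, above all WT non-TFH cells at 224 to 362 CPM. That rise of 0.64 ± 0.10 passed (FDR = 3.99e-05), though without replicate 4 of WT non-TFH cells it was 0.58 and no longer over 1.5-fold. In S1PR4-/- mice TFH and non-TFH cells overlapped, at 317 to 465 CPM and 321 to 367 CPM (0.12 ± 0.08, FDR = 0.159). GC B and TFH cells of WT mice did not differ beyond their spread (0.0050, 95% interval -0.20 to 0.21, FDR = 0.966).

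Sema4a, a class 4 semaphorin known as a costimulatory ligand of dendritic and T cells, lies on chromosome 3 at 88435959 to 88461182, minus strand. It was highest in non-TFH cells, with 209 to 318 CPM in WT (median 260) and 252 to 345 CPM in S1PR4-/- mice (median 307). TFH cells held 70.9 to 94.7 CPM in WT and 53.5 to 112 CPM in S1PR4-/- mice, below every non-TFH library. The log2 difference was -1.60 ± 0.11 in WT (FDR = 7.23e-09) and -1.80 ± 0.15 in S1PR4-/- mice (FDR = 8.95e-08). B cells held far less: 7.49, 4.10, 3.89, 7.29 and 8.74 CPM in WT non-GC B cells, 15.4, 11.4, 5.54 and 4.95 CPM in S1PR4-/- non-GC B cells, 2.35 to 6.28 CPM in WT GC B cells and 1.99 to 4.39 CPM in S1PR4-/- GC B cells. The fall from non-GC B to GC B was not called in WT (-0.62 ± 0.31, FDR = 0.0947) and was called in S1PR4-/- mice (-1.49 ± 0.34, FDR = 0.00259), where the GC B libraries lay below all 4 non-GC B libraries. Without replicate 6 of WT GC B cells the WT difference was -0.78 and was called (FDR = 0.0412). Whether this fall differed between the genotypes was tested directly, and it did not pass (-0.87, 95% interval -1.88 to 0.14, FDR = 1.00).

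Sema4b is a transmembrane class 4 semaphorin on chromosome 7 at 80186841 to 80226527, plus strand. WT non-GC B cells held 37.8, 32.6, 41.7, 38.9 and 44.5 CPM and WT GC B cells 19.6 to 44.7 CPM, with overlap (-0.32 ± 0.17, FDR = 0.116). T cells held less, at 10.7 to 14.8 CPM in WT TFH cells and 9.95 to 14.8 CPM in WT non-TFH cells. These were the closest neighbours in the order of WT levels (-0.0029, 95% interval -0.27 to 0.27, FDR = 0.986). In S1PR4-/- mice TFH cells lay below all non-TFH cells, at 6.69 to 10.9 CPM against 11.1 to 17.4 CPM, and the gene was called lower (-0.69 ± 0.13, FDR = 3.80e-04).

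Sema4c, a ligand of plexin-B2, lies on chromosome 1 at 36548639 to 36558349, minus strand. It was low, and highest in TFH cells, with 1.08 to 2.41 CPM in WT (median 1.79) and 1.58 to 4.60 CPM in S1PR4-/- mice (median 2.20). Non-TFH cells were close to 0: the 6 WT libraries together held 9 counts, against 399 in TFH cells, and 4 of them held none. The S1PR4-/- non-TFH libraries held 20 counts against 543. The CPM of the summed counts was 43.4 times higher in TFH than in non-TFH cells of WT mice (95% counting interval 22.6 to 95.5) and 26.3 times higher in S1PR4-/- mice (16.9 to 43.4). Since Sema4c passed the filter through the TFH libraries alone, its call in the fit is not read as a test of this rise. GC B cells held 18 counts in WT and 1 in S1PR4-/- mice. The WT non-GC B libraries held 0, 0.0656, 0, 0 and 1.42 CPM, so most of that group's counts came from replicate 5.

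Set against each other across lineages in WT mice, GC B cells were called higher than TFH cells for Efnb1 (log2 difference 5.35), Plxnb2 (5.59), Sema7a (3.17) and Sema4b (1.27), and lower for Ephb6, Sema4a (-4.43), Plxnd1 (-2.59) and Sema4c, with 44.3% of all genes called (20.1% higher, 24.2% lower). Non-GC B cells were called higher than non-TFH cells for Plxnb2 (4.15), Sema7a (3.22) and Sema4b (1.70) and lower for Ephb6, Sema4a (-5.31) and Plxnd1 (-1.61), with 38.9% of all genes called (19.7% higher, 19.1% lower). Ephb6 in both comparisons and Sema4c in the first passed the filter through the T-cell libraries, where they are high, so their calls are a description and not a test. Each of these comparisons also sets day 9 against day 6. Efnb1 was called between GC B and TFH cells and not between non-GC B and non-TFH cells (FDR = 4.03e-11 and 0.651).

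The shift from non-GC B to GC B was then tested against the shift from non-TFH to TFH in WT mice, with an FDR under 0.05 as the only threshold, at which 41.7% of 15101 genes were called (20.3% with the more positive shift in B cells, 21.4% in T cells). Of the 10 members, 9 were tested and 5 were called. Efnb1 differed by 5.57 ± 0.35 (FDR = 2.14e-11), rising in B cells and falling in T cells. Plxnb2 rose in both lineages, and by 1.51 ± 0.38 more in B cells (FDR = 0.00260). Sema4a differed by 0.94 ± 0.31 (FDR = 0.0180), through its fall in T cells and its smaller, uncalled difference in B cells. Sema4c differed by -6.93 ± 1.68 (FDR = 0.00192) and Ephb6 by 3.25 ± 1.08 (FDR = 0.0186), but both rest on B-cell libraries with 2 to 42 summed counts a group, and Ephb6 was not called by limma voom (1.90, FDR = 0.126). Both genes passed the filter through T-cell libraries, where they are high, so these calls are a description and not a test. The shifts of Plxnd1 (-0.93, FDR = 0.121), Sema4b (-0.37, FDR = 0.185) and Sema4d (-0.20, 95% interval -0.54 to 0.13, FDR = 0.333) did not pass. That of Sema7a was -0.0073 (FDR = 1.00), with -0.32 ± 0.79 by limma voom.

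The comparison of S1PR4-/- with WT cells of the same population asked whether these genes depended on the receptor, and it uses the same libraries as the comparisons above. None of the 10 genes was called in any population. Among all genes edgeR called 0.0612% in GC B, 0.0537% in non-GC B, 0.496% in TFH and 0.114% in non-TFH cells. In no population did the libraries of the genotypes separate without overlap for any of the 10, beside 0.191%, 1.56%, 1.6% and 1.01% of 16200 genes. An unadjusted p under 0.05 was reached by 1 of 7 members tested in GC B, 0 of 7 in non-GC B, 3 of 9 in TFH and 1 of 8 in non-TFH cells, beside 4.13%, 4.55%, 19.2% and 11.3% of all genes tested. DESeq2 and limma voom called none either. The intervals were narrow for the abundant genes: in GC B cells Plxnb2 differed by 0.25 (95% interval -0.06 to 0.56), Efnb1 by 0.12 (-0.22 to 0.46) and Sema4d by 0.08 (-0.14 to 0.31). They were wide for low genes, such as Efnb1 in non-GC B cells (-0.78, -2.62 to 1.07) and Plxnb2 in non-TFH cells (0.13, -0.92 to 1.17).

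Sema4b in TFH cells came nearest to a call. Its WT libraries held 10.7 to 14.8 CPM (median 12.2) and its S1PR4-/- libraries 6.69 to 10.9 CPM (median 8.91), so the highest S1PR4-/- library just passed the lowest WT one. The log2 difference was -0.49 ± 0.12 (95% interval -0.75 to -0.23, FDR = 0.0552), a 1.41-fold difference. Sema4d in TFH cells had 414 to 513 CPM in WT and 317 to 465 CPM in S1PR4-/- libraries, and differed by -0.28 ± 0.08 (-0.46 to -0.10, FDR = 0.0964). DESeq2 gave an FDR of 0.00532 for Sema4b and 0.0424 for Sema4d, both under 1.5-fold. WT and S1PR4-/- TFH libraries also differed in B-cell markers, with a mean log2 CPM over the 8 markers of 3.66 ± 1.24 (SD, n = 6) and 1.19 ± 1.51 (SD, n = 6). With that mean as a covariate the log2 difference was -0.49 ± 0.18 for Sema4b (FDR = 0.320) and -0.37 ± 0.12 for Sema4d (FDR = 0.227), so Sema4b kept its size, Sema4d was larger, and both standard errors grew. Sema7a in TFH cells (-0.70, FDR = 0.242), Sema4d in non-TFH cells (0.26, FDR = 0.273) and Plxnd1 in GC B cells (-1.14, FDR = 0.985) were the others with an unadjusted p under 0.05. For Plxnd1 the WT GC B libraries held 2.87, 0.699, 2.52, 1.94, 1.81 and 2.71 CPM and the S1PR4-/- libraries 0.256 to 1.67 CPM, so 1 WT library lay within the S1PR4-/- range.

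**Figure D4:**
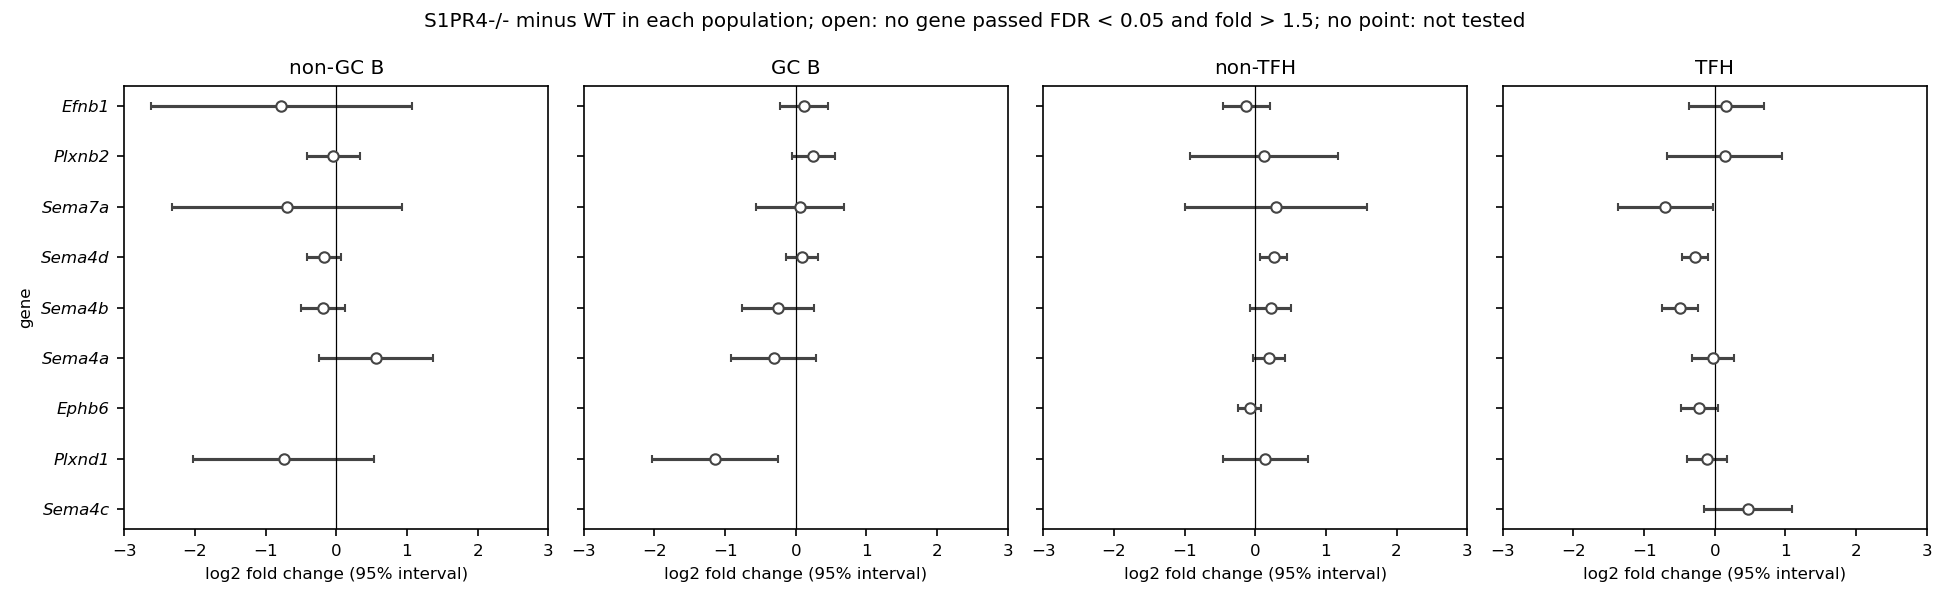
Log2 fold changes of S1PR4-/- minus WT with 95% intervals on a shared axis from -3 to 3, by gene and population, with no point where a gene was not tested. All points are open because no gene of the 10 was called, and 5 intervals leave out 0: Sema4b, Sema4d and Sema7a in TFH and Plxnd1 in GC B cells lie below it, and Sema4d in non-TFH cells above it.

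Whether the state shift itself differed between genotypes was tested as an interaction. In B cells 0.0% of 14490 genes were called and in T cells 0.0139% of 14401, no member among them by edgeR. Sema4b in T cells differed by -0.71 ± 0.18 (unadjusted p = 0.00077, FDR = 0.195) and Sema4d by -0.54 ± 0.13 (unadjusted p = 0.00038, FDR = 0.161), both from lower TFH and higher non-TFH means in S1PR4-/- mice. DESeq2 called both, with FDR of 0.0449 and 0.0289. The call for these genes thus depends on the tool.

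Other genes of the same pathways were read from lists of 19 further ephrins and Eph receptors, 9 further plexins and neuropilins, 15 further semaphorins, 6 further semaphorin receptors and 42 signalling genes. Few of the ligands and receptors were expressed: in WT B cells 4 ephrin and Eph genes, 7 plexins and neuropilins, 4 semaphorins and 4 other receptors passed the filter. Of these, 0, 2, 1 and 2 were called higher and 1 in each list lower in GC B cells, beside 24.8% and 23.1% of all genes. Among the receptors that pair with the members, Itgb1, the β1 integrin that binds Sema7a, rose from 68.1 ± 7.01 CPM (SD, n = 5) to 201 ± 12.9 CPM (SD, n = 6), a log2 change of 1.63 (FDR = 5.35e-09). Cd72, the B-cell receptor for Sema4d, fell from 738 ± 66.2 CPM to 387 ± 132 CPM (-0.87, FDR = 0.00172). Plxnb3, a further B-type plexin, was at 1.03 CPM in GC B and 0.0678 CPM in non-GC B cells (3.98, FDR = 0.00155), and Nrp1, a semaphorin co-receptor, at 3.48 and 0.810 CPM (2.19, FDR = 0.0271), with overlap. Plxnb3 was at 4.91 without replicate 4 of non-GC B cells, and Nrp1 lost its call without replicate 1 (FDR = 0.0536) or 2 (FDR = 0.0537) of GC B cells. Plxna3 (-1.48), Sema5a (-1.36) and Efna1 (-0.75, FDR = 0.0324) were called lower, all with overlapping libraries, and Efna1 lost its call without any of replicates 1, 4, 5 and 6 of GC B or 1 and 4 of non-GC B cells (FDR up to 0.119). Timd2, a receptor of the TIM family reported to bind Sema4a, had 1605 summed counts in GC B and 1 in non-GC B cells, and Sema4f 543 and 1. The ratios of their CPM were 1324 (237 to 52314) and 448 (80.0 to 17720). Plxnb3, Timd2 and Sema4f passed the filter through the GC B libraries, where they are high, so their calls are a description and not a test.

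Of 34 signalling genes tested in WT B cells 8 were called higher and 4 lower, beside the 47.8% of all genes called in this comparison. Cfl1, the actin-severing protein cofilin, rose from 847 ± 24.7 to 1710 ± 128 CPM (1.08, FDR = 4.71e-08). Limk1, a kinase that inhibits cofilin, fell from 16.1 ± 3.58 to 4.48 ± 1.36 CPM (-1.78, FDR = 1.51e-05). Arhgef12, an exchange factor for small GTPases that binds B-type plexins, rose by 1.79 on the log2 scale (FDR = 8.61e-05), and Vav3, a guanine nucleotide exchange factor, changed by -2.30 (FDR = 4.72e-06). None of these 4, named as the largest called of their list, overlapped between GC B and non-GC B libraries. Of 16200 genes 43.1% did not overlap in this comparison.

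In WT T cells 2 ephrin and Eph genes, 6 plexins and neuropilins, 3 semaphorins, 3 other receptors and 37 signalling genes passed the filter, of which 2, 4, 1, 1 and 9 were called higher in TFH cells and 0, 0, 1, 1 and 5 lower, beside 22.8% and 20.4% of all genes. Plxnc1, the plexin that binds Sema7a, rose from 26.3 ± 3.66 to 142 ± 17.2 CPM (SD, n = 6 each), by 2.43 on the log2 scale (FDR = 1.56e-10). Itgb1 rose from 215 ± 67.5 to 844 ± 69.7 CPM (1.98, FDR = 1.05e-07), so both receptor genes of Sema7a were higher in TFH than in non-TFH cells. Nrp1 (1.02, FDR = 2.13e-04), Nrp2 (1.51, FDR = 4.72e-04) and Plxna3 (1.75, FDR = 1.28e-05) also rose, while Cd72 fell from 51.7 to 17.8 CPM (-1.54, FDR = 2.44e-06). Sema4f was higher (0.61) and Sema6c lower (-0.97) in TFH cells, Sema4f falling under 1.5-fold without replicate 1 or 6 of TFH or 6 of non-TFH cells (lowest 0.56). Tiam1, a Rac activator, rose by 2.18 (FDR = 4.18e-07), Rnd3, a small G protein without GTPase activity, by 3.69 (FDR = 5.43e-05), and Rras2, of the R-Ras family on which plexins act, changed by -1.92 (FDR = 9.58e-10). Chn1, a Rac-inactivating chimaerin downstream of Eph receptors, had 393 summed counts in TFH cells and 0 in non-TFH cells, at least 128-fold higher with 3 counts over the group for 0. Rnd3, at 0.117 CPM in non-TFH cells, and Chn1 passed the filter through the TFH libraries. Their calls are a description and not a test.

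Of all listed genes, 1 was called between S1PR4-/- and WT cells: Limk1 in TFH cells, at 11.6 ± 2.62 CPM against 19.0 ± 3.12 CPM (-0.71 ± 0.16, FDR = 0.0449), with overlapping libraries. Limk1 was 1 of 38 signalling genes tested in TFH cells, where 0.496% of all genes were called. It lost its call with B-cell markers as a covariate (-0.51, FDR = 0.384) and when any of 8 of the 12 libraries was left out, namely replicates 1, 2, 3 and 5 of WT and 1, 4, 5 and 6 of S1PR4-/- TFH cells, with FDR up to 0.110.

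The genes with profiles closest to each member were named by the root mean square difference over the 8 group means of log2 CPM, each centred, among 12027 genes with a mean of at least 1 CPM. Efnb1 was nearest to Ada (0.60 on the log2 scale), Chrna9 (0.64) and Mgll (0.70). Ada, adenosine deaminase, was at 216 ± 25.1 CPM in WT GC B cells and 5.71 ± 1.302 CPM in WT non-GC B cells. Plxnb2 was nearest to Flt3 (0.51), Sh2b2 (0.59) and Derl3 (0.73), with Flt3, a receptor tyrosine kinase, at 89.9 ± 12.8 CPM in GC B, 4.41 ± 2.69 in non-GC B, 4.87 ± 2.44 in TFH and 0.305 ± 0.221 CPM in non-TFH cells of WT mice. Sema7a was nearest to Fndc3b (0.40), Epn2 (0.40) and Gm37759 (0.41). Ephb6 was nearest to Trat1 (0.30), Tnfrsf25 (0.41) and Tcf7 (0.45), and Trat1, an adaptor of the T-cell receptor complex, was at 129 ± 14.4 CPM in WT non-TFH, 89.4 ± 4.50 CPM in WT TFH and under 0.1 CPM on average in B cells. Plxnd1 was nearest to Prkca (0.35), Batf (0.35) and Camk2b (0.35), Sema4a to Enpp5 (0.26), She (0.28) and Ppp1r3b (0.36), Sema4b to Hexdc (0.16), Bin1 (0.17) and Plekhm1 (0.17), and Sema4c to Stx11 (0.43), Gpm6b (0.56) and Lgals3 (0.68). Batf and Tcf7 are transcription factors of activated and of resting or follicular T cells. Sema4d spanned 0.73 on the log2 scale over the 8 groups, so its nearest genes, Kpna6, Fam207a and Hnrnpa0, are those that vary as little. Ephb4 was near 0 throughout and gave no profile to compare.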

How the data were processed

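Poly(A) RNA of sorted cells was made into stranded paired-end libraries. After trimming by Cutadapt 2.10, the authors used STAR 2.5.3 in two-pass mode for alignment to mm10, marked duplicates with Picard and deposited RSEM 1.3.0 expected counts per gene. Whether the counting used strand is not given in the sources used here. The methods name GENCODE M30, whereas the symbols match release M21, from which exon lengths and GRCm38 coordinates were taken. Overlapping genes listed there are Zan at Ephb4, D430040D24Rik at Sema4c (both on the opposite strand), Gm45206 at Sema4b, and small RNA genes at Plxnb2, Sema4a and Sema4d, so their reads may be shared. A symbol was repeated in 111 rows, none of them among the 10 genes.

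The deposited expected counts, of which 8.83% were not whole, were rounded. Each comparison was fitted on its own groups with edgeR 4.0.16 in R 4.3.3 (filterByExpr, TMM, glmQLFit and glmQLFTest) over all genes, with Benjamini-Hochberg adjustment, an FDR under 0.05 and a fold over 1.5. Interactions used FDR alone. The code was tested on simulated data. Alternatives were DESeq2 1.42.0, limma 3.58.1 voom, RLE or upper quartile scaling, no filter, 1 fit over the 8 groups, a replicate block, markers of the other lineage or Xist as covariates, and leaving out each library. No 2 libraries had the same count at more than 2.98% of the genes with a mean count over 50. The members and lists were chosen with earlier results of these data known. Named are all members, listed genes called in GC B against non-GC B or TFH against non-TFH cells of WT mice with at least 1 CPM in a group (at most the 4 largest per list), listed genes called between genotypes, S1pr4 and the 3 nearest profiles of each member. Rgs13, Gcsam and the marker sums were read from marker lists. Motifs were read in RefSeq windows on GRCm38.p6. Intervals are 95%, and counting bounds took 3 counts for 0.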

Additional observations from a re-analysis of the deposited data

Results flagged for a closer look

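In 65 sets of 1 gene in 1 group, the distance of the extreme library from the rest was tested by Dixon's ratio, which chance exceeds in about 1 of 20 sets, and 3 sets passed. Ephb6 was 112.6 CPM in replicate 1 of WT non-TFH cells, where the next library held 101.9 CPM. Plxnb2 was 16.3 CPM in replicate 6 of S1PR4-/- TFH cells, where the next library held 6.87 CPM and the others had a median of 5.00 CPM, and that library also held 421.9 CPM of summed myeloid markers. Sema4c was 1.42 CPM in replicate 5 of WT non-GC B cells, where the next library held 0.0656 CPM and the others a median of 0.

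In WT mice the shift from non-GC B to GC B was tested directly against the shift from non-TFH to TFH. It differed for Efnb1 (5.57 on the log2 scale, B cells minus T cells, FDR = 2.14e-11), Plxnb2 (1.51, FDR = 0.00260), Sema4a (0.94, FDR = 0.0180), Ephb6 (3.25, FDR = 0.0186) and Sema4c (-6.93, FDR = 0.00192). These adjusted p-values are from edgeR's quasi-likelihood test, which called 41.7% of all genes in this contrast. Ephb6 and Sema4c passed the filter through T-cell libraries, where they are high, so their calls are a description and not a test. Ephb6 was also not called by limma voom (1.90, FDR = 0.126).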

How the results depend on the processing

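Of 1627 values of members under an alternative, 1560 kept direction and side of the threshold, 10 lost a call, 5 gained one and 52 changed sign, the last only for members not called, with a main log2 difference of at most 0.29 in size. Of 478 for named list genes, 449 kept their call, 29 lost it and none changed sign.

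The number of members called in GC B against non-GC B cells of WT mice was 5 with all 8 groups in one fit, against 3, as Sema4a (-0.67) and Ephb6 (2.43, 16 against 2 summed counts) then passed, and Sema4a also passed with the replicate block (-0.79, FDR = 0.0340). Sema4c, which the filter had left untested in B cells, was called lower in GC B than in non-GC B cells of S1PR4-/- mice (1 against 38 summed counts) by DESeq2 (-5.03), without the filter (-4.91) and with all 8 groups (-5.04), and with all 8 groups it was called higher in non-GC B than in non-TFH cells of WT mice (2.66, 42 against 9 summed counts). DESeq2 called 2 members in the T-cell interaction, Sema4b and Sema4d, against 0. Sema7a in TFH against non-TFH cells of S1PR4-/- mice lost its call without the filter (FDR = 0.0561), and Ephb6 in the lineage contrast lost its call by limma voom (1.90).

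Over all genes, calls between genotypes were 17 by DESeq2 against 8 in GC B cells, and 20 by DESeq2 and 25 with all 8 groups against 7 in non-GC B cells. In TFH cells they were 246 by DESeq2, 153 with all 8 groups, 15 with B-cell markers and 149 with Xist as covariate, against 67, and 15 to 117 leaving out 1 library. In non-TFH cells they were 62 by DESeq2, 8 with B-cell markers and 9 with Xist, against 15, and 11 to 27 leaving out 1 library. The B-cell interaction gave 5 by DESeq2 and 5 with all 8 groups, against 0, and 0 to 1 leaving out 1 library. The T-cell interaction gave 79 by DESeq2, 1 by limma voom and 10 with the replicate block, against 2. The cause was not tested.

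Replicate numbers were not taken as pairs in the main fits, since not every pair of libraries correlated over 0.1. Of same-numbered B-cell pairs (WT and S1PR4-/-) 1 of 5 and 0 of 4 did, and of T-cell pairs 2 of 6 and 3 of 6. In the same order 4 of 5, 0 of 4, 4 of 6 and 6 of 6 libraries correlated best with their own number. In every set but S1PR4-/- B cells this is a hint of pairing that the labels do not give, and the main fits leave it out. Limk1 in TFH cells lost its call in the block (-0.73, FDR = 0.0527), as did Nrp1 (2.54, FDR = 0.0632) and Efna1 (-0.69, FDR = 0.147) in B cells. Besides Sema4a, no other call of a named gene changed with it.

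Signs turned as follows. Sema4b in TFH against non-TFH cells of WT mice was 0.018 by DESeq2, 0.0051 by limma voom, 0.014 with RLE scaling, 0.0027 without the filter, 0.0036 with the block and -0.071 to 0.048 leaving out 1 library. Sema4d in GC B against TFH cells was -0.0019 by limma voom, -0.0071 without the filter, -0.0038 with all 8 groups and -0.0019 with the block. Between genotypes, Plxnb2 was 0.041 with the block in non-GC B cells (-0.13 to 0.055 leaving out 1 library), -0.031 by limma voom in TFH cells (-0.33 to 0.28), and in non-TFH cells -0.17 by limma voom, -0.15 with the block, -0.074 with B-cell markers and -0.31 with Xist (-0.23 to 0.33). Plxnd1 was 0.0010 with B-cell markers in TFH cells, and -0.42 with B-cell markers and -0.18 with Xist in non-TFH cells (-0.036 to 0.33). Ephb6 in TFH cells was 0.015 and Sema7a in non-TFH cells -0.17 with B-cell markers. Sema7a in the lineage contrast was 0.00082 with RLE and 0.0023 with upper quartile scaling, and Plxnb2 in the T-cell interaction -0.028 with all 8 groups and -0.12 with the block. Leaving out 1 library also turned Plxnd1 in S1PR4-/- B cells (-0.079 to 0.41), and, between genotypes, Sema7a in GC B cells (-0.13 to 0.25) and in non-TFH cells (-0.23 to 0.55), and Efnb1 (-0.013 to 0.28) and Sema4a (-0.12 to 0.078) in TFH cells. It turned Efnb1 in non-GC B against non-TFH cells (-0.43 to 0.020) and Sema4b in the B-cell interaction (-0.16 to 0.084).

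Depth limits Ephb4 everywhere and Ephb6 and Sema4c in B cells, where groups held 0 to 42 summed counts. Efnb1 in S1PR4-/- B cells rose by 5.99 without replicate 4 of the non-GC B libraries.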
